A study of Mus musculus with 24 samples.

Results

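The 10 genes Dcx, Map2, Mapt, Map1b, Stmn2, Stmn3, Nefl, Nefm, Ina and Gap43, known for the cytoskeleton of neurons and for growing neurites, were chosen by name. This choice was made with earlier results of these data known. All 10 were present among the 21909 gene symbols of the ESC and NPC expression tables, and all 6 RNAseq samples were used.

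A neurite grows and keeps its shape through bundles of microtubules and a core of intermediate filaments. Microtubule-associated proteins bind and stabilize microtubules, stathmins bind free tubulin and favour disassembly, neurofilament proteins build the filaments that set the caliber of axons, and growth-cone proteins act at the membrane of the advancing tip. Several of these genes are classical markers of young neurons, and the repressor REST is known to keep many neuronal genes silent outside the nervous system.

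RNAseq of polyadenylated RNA was carried out in 2 groups of 3 samples, numbered as replicates. It set the transcriptomes of both cell types beside maps of their contacts with the nucleolus. ESCs were untreated mouse embryonic stem cells of the E14 line, grown without feeder cells in N2/B27 medium with LIF (1000 U/ml) and the inhibitors CHIR99021 (3 µM) and PD0325901 (1 µM). NPCs were neural progenitors derived in vitro from E14 cells through embryoid bodies in serum-containing medium over 8 days, with retinoic acid at 2 µM during the last 4 days. Cell type, culture medium and deposited table go together, so that their parts in any difference between the groups cannot be told apart.

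Expression was given as RPKM, reads per kilobase scaled to the total reads of each sample. Low values showed what the kilobase stands for: among values worth 1 to 5 reads, 65.0 to 67.5% came out as whole reads within 0.05 reads when multiplied by the whole gene span including introns, against 11.5 to 12.6% with the length of the exons. The RPKM of a gene with long introns was therefore low by construction. The text uses 3 scales. RPKM is the deposited level, RPM is RPKM multiplied by the gene span in kilobases and so gives reads without a length, and the exon-scaled level is RPM per kilobase of RefSeq exons. Levels of different genes were compared on the exon scale, which assumes that the reads came from exons. The study's methods describe the RPKM as made from the coverage of the exons of each gene. In each list the gene with the highest mean RPKM over the 6 samples is also described, and where another gene had the highest mean over these samples on the exon scale, that is said. The samples held 34.0, 33.7 and 30.8 M reads in ESC replicates 1, 2 and 3 and 30.1, 27.3 and 32.3 M reads in NPC replicates 1, 2 and 3, as rebuilt from the steps between low values.

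ESC replicate 3 stood apart from the other ESC samples. Across genes, its log2 levels correlated with ESC replicates 1 and 2 at Pearson 0.963 and 0.966, while ESC replicates 1 and 2 correlated at 0.999 and the NPC samples at 0.996 to 0.999. Its median log2 difference from the other ESC samples ran with transcript length, from 0.85 for genes with less than 1 kb of exons to -0.74 for genes with over 8 kb. In NPC replicate 3 the same medians lay between -0.01 and 0.02. Of the 10 genes, Map1b, Map2, Ina and Nefm were lower and Stmn2, Stmn3, Nefl and Mapt higher there than in both other ESC samples, while Gap43 lay between them and Dcx was at 0. Not every gene went with length, since Mapt has 10.1 kb of exons and Gap43 1.31 kb. For many results that moved with this sample, values without it are also given.

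Markers of cell types, whose lists were also chosen with earlier results of these data known, were compared with the labels. All 9 markers of pluripotent cells were lower in NPCs than in ESCs (limma with Benjamini-Hochberg adjustment, here and in all calls), and their summed exon-scaled level was 3863, 3859 and 7343 in the ESC samples and 26.2, 25.4 and 24.0 in the NPC samples. The most abundant of them in ESCs, Dppa5a, fell from 1307, 1294 and 3131 RPKM to 0.354, 0.130 and 0.110 RPKM. Of 9 markers of neural progenitors and radial glia, 6 passed the filter of at least 1 RPKM in at least 3 of the 6 samples, and of these Sox1, Pax6, Nes and Hes5 rose in NPCs while Sox2 fell. A gene that reaches the filter in the samples of 1 group alone can only be called higher in that group. In RPKM this holds for 1335 of the 2898 genes called higher and 549 of the 2611 called lower, among them Sox1, Pax6 and Hes5 and 7 of the 9 pluripotent markers, so counts with no filter are given beside many of the lists. With no filter, 39.4% of 18401 genes were called higher and 22.9% lower, and of these lists 7 progenitor markers rose, Sox2 fell and all 9 pluripotent markers fell. In RPM, a scale chosen after seeing the data, all 9 were tested, 7 rose and Sox2 fell. Pax6, a transcription factor of radial glia, measured 0.0134, 0.0167 and 0.00457 RPKM in ESCs and 1.55, 1.42 and 1.67 RPKM in NPCs. Sox2, which had the highest mean level of that list over the 6 samples, measured 156.9, 154.3 and 141.6 RPKM in ESCs and 6.82, 8.56 and 9.91 RPKM in NPCs. The summed exon-scaled level of the list was lower in NPCs, at 105.8 to 114.4 against 150.2 to 172.0 in ESCs. Without Sox2, which also marks ESCs, the sum was higher in NPCs, at 98.9 to 105.5 against 8.53 to 15.1.

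Many markers of cells outside the neural lineage also rose in NPCs. Of 6 endoderm markers, 4 reached the filter, all through NPCs alone, so that their rise was set by the filter. With no filter all 6 were called higher. The summed exon-scaled level of the list was 0.884, 0.998 and 0.577 in ESCs and 183.2, 190.2 and 192.1 in NPCs. Of 10 markers of mesoderm and mesenchyme, 7 reached the filter, again through NPCs alone, and with no filter 8 rose and T (Brachyury), a gene of early mesoderm, fell. Their sum was 4.99, 5.21 and 4.19 in ESCs and 304.5, 316.0 and 313.1 in NPCs. The genes with the highest mean RPKM were Gata6, with 6.30, 6.93 and 6.82 RPKM in NPCs, and Foxf1, with 29.1, 27.3 and 23.8 RPKM in NPCs, which was listed at 0 in all ESC samples. On the exon scale Gata4 led the endoderm list in both groups, while T led the mesoderm list in ESCs with a mean level of 3.78 and Col3a1 in NPCs with 139.7. T measured 0.964, 1.04 and 0.869 RPKM in ESCs and 0.0164, 0.00909 and 0.0115 RPKM in NPCs. Afp and Ttr of the endoderm list and Foxf1 and Lox of the mesoderm list were at 0 in all ESC samples, and no marker of any list was at 0 in all NPC samples.

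Neuron markers went in both directions. In RPM all 10 could be tested, and Elavl3, Elavl4, Rbfox3, Syt1, Snap25, Syp and Isl1 rose while Tubb3, Elavl2 and Syn1 fell. Of the 7 that rose, 5 reached the filter through NPCs alone, and with no filter the same 10 calls were made. Their summed exon-scaled level was 45.2, 52.2 and 51.6 in ESCs and 46.6, 39.2 and 46.1 in NPCs, so the groups overlapped. Tubb3, a neuronal beta-tubulin, made up most of that sum and measured 6.42, 7.57 and 7.86 RPKM in ESCs and 4.47, 3.56 and 4.41 RPKM in NPCs, a fall that did not pass with the same sum of RPKM, where the log2 difference was -0.33. Syt1 was at 0 in all ESC samples and between 0.00707 and 0.00905 RPKM in NPCs. The samples labelled NPC thus held RNA of Pax6, Nes and Hes5 together with RNA of endoderm and mesenchyme markers, and the part of each cell type in the levels below was not tested. In bulk samples, more cells of a type and more RNA per cell cannot be told apart.

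**Figure D1:**
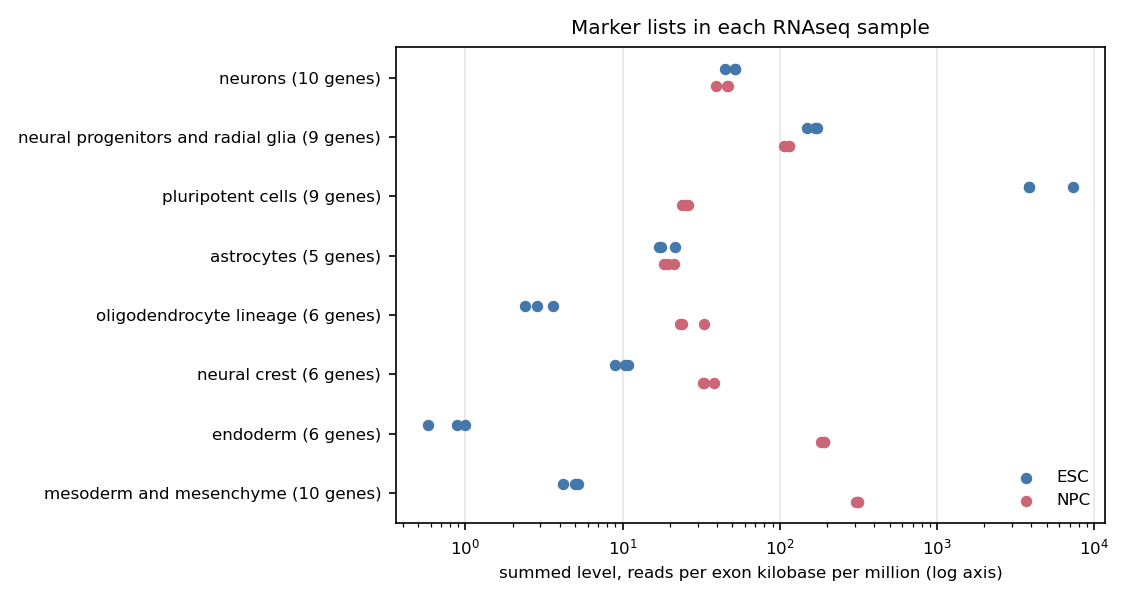
Summed level of each marker list in the 3 ESC (blue) and 3 NPC (red) samples, in RPM per kilobase of exons on a log axis, 1 point per sample. The endoderm list lies at 0.577 to 0.998 in ESCs and 183.2 to 192.1 in NPCs, while the neuron list overlaps between the groups.

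The smaller lists of glia and neural crest gave less. Of 5 astrocyte markers only Aldoc was tested in RPKM, and it rose from 5.81, 6.00 and 7.42 RPKM to 11.7, 10.9 and 12.9 RPKM. In RPM Aldh1l1 could be tested too, through ESCs alone, and was called lower, as it was with no filter, at 0.502, 0.525 and 0.640 RPKM in ESCs and 0.00991, 0.0135 and 0.0120 RPKM in NPCs. Aqp4 and S100b were at 0 in all ESC samples, and the sums of the list, 17.0 to 21.6 in ESCs and 18.4 to 21.4 in NPCs, overlapped on the exon scale. Of 6 genes of the oligodendrocyte lineage only Pdgfra was tested in RPKM, a receptor also present in mesenchyme, and it rose from 0.0243, 0.0213 and 0.0120 RPKM to 5.06, 3.32 and 3.21 RPKM, reaching the filter in NPCs alone. The sum of this list went from 2.39 to 3.62 in ESCs and from 23.1 to 32.9 in NPCs. Of 6 neural crest markers, Ets1 and Snai2 rose and Foxd3, which ESCs also express, fell from 7.65, 8.14 and 7.16 RPKM to 0.871, 0.805 and 0.813 RPKM. The test in RPM added Tfap2b, which rose, and Tfap2a, which fell from 0.615, 0.628 and 0.453 RPKM to 0.112, 0.114 and 0.0805 RPKM. In RPKM Ets1, Snai2 and Foxd3 each reached the filter in 1 group alone. In RPM Tfap2b, Ets1 and Snai2 reached it through NPCs alone, so they could only be called higher there. With no filter 4 crest markers rose while Foxd3 and Tfap2a fell. The sum of the crest list was 8.97 to 10.9 in ESCs and 32.6 to 38.2 in NPCs, with Tfap2b at 0 in all ESC samples. On the exon scale Foxd3 led the crest list in ESCs and Ets1 in NPCs, with mean levels of 7.65 and 25.6.

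Of the 10 genes, 7 were higher in all NPC samples than in any ESC sample, 2 were lower, and Stmn3 overlapped. Among the 18401 genes above 0, 45.5% had all NPC samples above and 27.4% all NPC samples below the ESC samples. In RPKM, 4 of the 10 genes passed the filter, of which 3 were called higher and 1 lower in NPCs, against 36.9% and 33.3% of 7849 tested genes. A call of higher with a difference of at least 2-fold on the log2(RPKM + 1) scale was made for 2 of them, Map1b and Ina, against 16.6% of the tested genes. Ina was just under this fold without ESC replicate 3 or without NPC replicate 1, at log2 differences of 0.96 and 0.97, so that 1 gene was then counted. The other 6, Map2, Mapt, Dcx, Stmn3, Nefm and Gap43, were below the filter. In RPM all 10 were tested, and 7 were called higher and 2 lower, against 45.4% and 28.3% of 13245 genes. Dcx could be called only as higher there, and Stmn2 only as lower in RPKM, since each reached the filter in 1 group alone. For Map1b and Ina in RPKM and Gap43 in RPM, the ESC samples alone would not have passed the filter. With no filter, these genes were also called higher. The count of genes at least 2-fold higher was 6 in RPM, 5 on the exon scale and 6 with no filter and a pseudocount of 0.1. These stand beside 34.6%, 27.8% and 19.5% of all tested genes.

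Scaling moved all genes together and is needed to read these counts. Of the genes called in RPKM, 52.6% were higher in NPCs, and 71.6% were when each sample was rescaled to the same sum of RPKM, which moved the median difference of all tested genes from 0.02 to 0.36 on the log2 scale. That median was 0.33 in RPM and 0.20 on the exon scale. The median difference of the 10 genes was 0.31 on the log2(RPKM + 1) scale, beside 0.02 over all tested genes and 0.01 over all genes above 0. Its SD over the samples of 1 group, with the other group held at its mean, was at most 0.0517. With a pseudocount of 0.1 the median difference of the 10 genes was 1.34, beside 0.04 over all tested genes and 0.07 over all genes above 0.

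**Figure D2:**
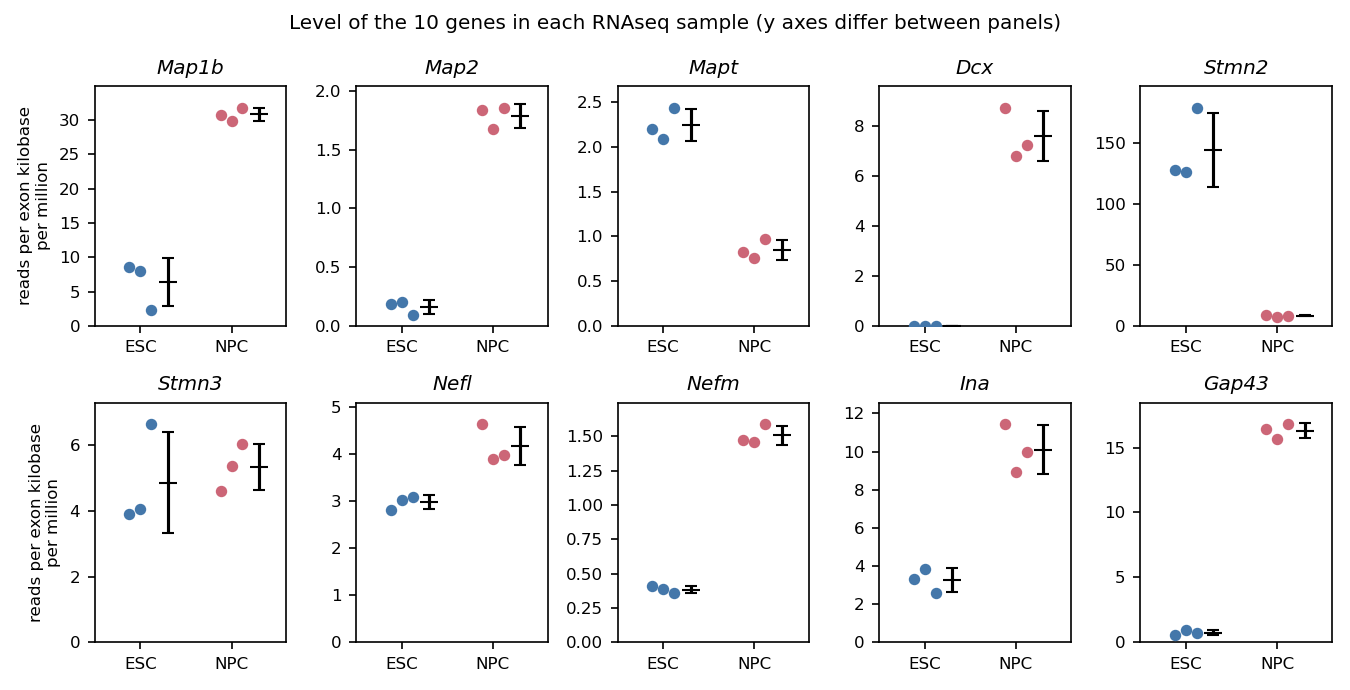
Level of the 10 genes in each sample, in RPM per kilobase of exons, with 1 point per sample, the mean as a horizontal line and the SD over 3 replicates as a bar. The y axes differ between panels. Stmn2 and Mapt are lower in NPCs, Stmn3 overlaps and the other 7 genes are higher in NPCs.

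The microtubule-associated proteins are taken first. Map1b encodes a protein that binds microtubules in growing axons and appears early in neuronal development. The gene lies at chr13:99421464-99516602 on the minus strand (RefSeq, GRCm38.p6, as for all genes here). It measured 1.12, 1.04 and 0.299 RPKM in ESC replicates 1, 2 and 3 and 3.98, 3.87 and 4.11 RPKM in the NPC samples, from 874 to 3616 reads and 10029 to 12625 reads. All NPC samples lay above all ESC samples, and ESC replicate 3 was far below the other ESC samples. The mean RPKM of NPCs was 4.87-fold that of ESCs, and 3.69-fold without ESC replicate 3. The difference on the log2(RPKM + 1) scale was 1.49 ± 0.19 (SE; limma, Benjamini-Hochberg adjusted p = 0.000492), with all 3 NPC samples higher. Its ESC samples alone would not have passed the filter, since ESC replicate 3 was below 1 RPKM.

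Map2 encodes a protein that stabilizes microtubules in dendrites and is a marker of maturing neurons. Its 267 kb span, at chr1:66175202-66442583 on the plus strand, contains 21.9 kb of exons. It measured 0.0155, 0.0170 and 0.00754 RPKM in ESCs and 0.150, 0.137 and 0.152 RPKM in NPCs, from 62 to 153 reads and 1000 to 1314 reads. The groups did not overlap, and ESC replicate 3 was again lowest. The mean RPKM was 11.0-fold higher in NPCs, and 9.03-fold without ESC replicate 3. In RPM the log2 difference was 3.35 ± 0.27 (SE; limma, Benjamini-Hochberg adjusted p = 3.15e-05, and 1.63e-10 to 0.000515 over the alternatives), with 3 of 3 NPC samples higher. For RPM, here and below, the alternatives were median-of-ratios scaling, the replicate number as a block and each sample left out in turn. An antisense RNA gene, Gm51629, shares 13152 bases with Map2. The sample labels name a library kit that does not keep the strand and the study's methods name one that does, so whether reads of overlapping genes on opposite strands were separated is not known.

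Mapt encodes tau, the main microtubule-associated protein of axons, and went in the other direction. The gene lies at chr11:104229409-104332090 on the plus strand. It measured 0.217, 0.206 and 0.240 RPKM in ESCs and 0.0817, 0.0743 and 0.0959 RPKM in NPCs, from 715 to 760 reads and 208 to 318 reads. Every ESC sample was above every NPC sample. Mapt was 2.63-fold lower in mean RPKM in NPCs, and its log2 difference in RPM was -1.35 ± 0.13 (SE; limma, Benjamini-Hochberg adjusted p = 0.000102, and 1.13e-06 to 0.00135 over the alternatives), with 3 of 3 NPC samples lower. In GENCODE M21 the antisense RNA gene Gm11659 shares 8460 bases with Mapt, so reads of these genes could have been counted for each other.

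Dcx encodes doublecortin, a microtubule-binding protein of migrating young neurons, whose gene lies at chrX:143855842-143933396 on the minus strand. It was listed at 0 in all 3 ESC samples and measured 1.05, 0.821 and 0.874 RPKM in NPCs, from 2459, 1737 and 2188 reads. Housekeeping genes such as Actb, Gapdh and Tbp were above 0 in each sample. No fold is given against a group at 0. Dcx reached the filter on RPM through the NPC samples alone and could only be called higher, so its p is not given as a test. All 3 NPC samples were above 0.

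The stathmins differed from each other. Stmn2, also called SCG10, encodes a membrane-bound stathmin of growth cones and lies at chr3:8509527-8561604 on the plus strand. It measured 4.67, 4.62 and 6.55 RPKM in ESCs and 0.327, 0.283 and 0.307 RPKM in NPCs, from 8109 to 10503 reads and 402 to 516 reads. All ESC samples were above all NPC samples, and ESC replicate 3 was highest. Mean RPKM was 17.3-fold lower in NPCs. The difference on the log2(RPKM + 1) scale was -2.25. In RPKM Stmn2 reached the filter through the ESC samples alone and could only be called lower, so its p there is not given as a test. In RPM Stmn2 reached the filter in both groups and was called lower. The log2 difference in RPM was -4.05 ± 0.17 (SE; limma, Benjamini-Hochberg adjusted p = 1.11e-06), with 3 of 3 NPC samples lower.

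Stmn3, a related stathmin of neurons at chr2:181306459-181314500 on the minus strand, was the gene whose groups overlapped. It measured 0.551, 0.571 and 0.937 RPKM in ESCs and 0.652, 0.757 and 0.851 RPKM in NPCs, from 151 to 232 reads in all samples. ESC replicate 3 was above all NPC samples, and the other ESC samples were below them. In RPM the log2 difference was 0.15 ± 0.22 (SE; limma, Benjamini-Hochberg adjusted p = 0.542), which did not pass the test. Without ESC replicate 3 it was 0.38 and called higher (limma, Benjamini-Hochberg adjusted p = 0.0159, the lowest over the alternatives, with 0.919 as the highest), and all 3 NPC samples were then higher. With median-of-ratios scaling of RPM the direction turned to -0.11, and with the same sum of RPKM in each sample the groups no longer overlapped.

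Nefl, Nefm and Ina were all higher in NPCs, by different amounts. Nefl, the light neurofilament subunit that other subunits need for assembly, lies at chr14:68083863-68089095 on the plus strand. It measured 1.82, 1.95 and 2.00 RPKM in ESCs and 2.99, 2.52 and 2.57 RPKM in NPCs, from 322 to 344 reads and 359 to 472 reads. The groups were close but did not overlap, and NPC replicate 1 was highest. The mean was 1.92 ± 0.0934 RPKM in ESCs and 2.69 ± 0.259 RPKM in NPCs (SD, n = 3), with a difference of 0.34 ± 0.08 on the log2(RPKM + 1) scale (SE; limma, Benjamini-Hochberg adjusted p = 0.00782) and 3 of 3 NPC samples higher. The call was lost with median-of-ratios scaling of RPM, where the log2 difference was 0.19 and the groups overlapped (limma, Benjamini-Hochberg adjusted p = 0.269, with 0.000992 as the lowest over the alternatives).

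Nefm, the medium subunit, lies at chr14:68119545-68125004 on the minus strand, next to Nefl. It measured 0.241, 0.228 and 0.213 RPKM in ESCs and 0.870, 0.865 and 0.939 RPKM in NPCs, from 36 to 45 reads and 129 to 166 reads. The groups were far apart relative to the spread within each. The mean RPKM was 3.92-fold higher in NPCs, and the log2 difference in RPM was 1.62 ± 0.10 (SE; limma, Benjamini-Hochberg adjusted p = 6.76e-06, and 2.54e-07 to 0.000152 over the alternatives), with 3 of 3 NPC samples higher. The antisense RNA gene A230070E04Rik shares 1253 bases with Nefm, and in GENCODE M21 the span of Nefm covers all 5233 bases of Nefl on the opposite strand, so reads of these genes could have been counted for each other.

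Ina encodes alpha-internexin, a neuronal filament protein that appears before the neurofilament subunits in development, and lies at chr19:47014681-47025327 on the plus strand. It measured 1.02, 1.17 and 0.792 RPKM in ESCs and 3.49, 2.72 and 3.05 RPKM in NPCs, from 259 to 421 reads and 790 to 1122 reads. All NPC samples were above all ESC samples. The mean RPKM was 3.11-fold higher in NPCs, with a difference of 1.04 ± 0.10 on the log2(RPKM + 1) scale (SE; limma, Benjamini-Hochberg adjusted p = 0.000158) and 3 of 3 NPC samples higher. As for Map1b, the ESC samples alone would not have passed the filter, since ESC replicate 3 was below 1 RPKM. Nt5c2 on the opposite strand shares 494 bases with Ina. Of the summed exon-scaled level of Nefl, Nefm and Ina, Ina took 42.8 to 52.9% in ESCs and 62.4 to 65.2% in NPCs.

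Gap43 encodes a protein on the inner face of the growth-cone membrane that is used as a marker of axon growth. Its gene, at chr16:42248552-42340651 on the minus strand, has 1.31 kb of exons in a span of 92.1 kb. It measured 0.00764, 0.0138 and 0.0106 RPKM in ESCs and 0.234, 0.222 and 0.239 RPKM in NPCs, from 24 to 43 reads and 558 to 710 reads. The NPC samples lay close together, and each was far above every ESC sample. NPCs were 21.7-fold higher in mean RPKM, and the log2 difference in RPM was 3.90 ± 0.16 (SE; limma, Benjamini-Hochberg adjusted p = 1.05e-06, and 1.79e-09 to 3.02e-05 over the alternatives), with 3 of 3 NPC samples higher. Here too the ESC samples alone would not have passed the filter, since ESC replicates 1 and 3 were below 1 RPM.

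On the exon scale, the order of the levels changed between the cell types. In ESCs Stmn2 led with a mean level of 144 ± 30.1 (SD, n = 3), followed by Map1b with 6.33 ± 3.50, Stmn3 with 4.86 ± 1.54, Ina with 3.25 ± 0.625 and Nefl with 2.98 ± 0.145. Mapt followed with a level of 2.24 ± 0.177, Gap43 with 0.751 ± 0.217, Nefm with 0.384 ± 0.0238 and Map2 with 0.163 ± 0.0619, and Dcx was at 0. The ranges of Map1b and Stmn3, and those of Ina and Nefl, overlapped, and other neighbours in this order did not. Without ESC replicate 3 neither pair overlapped, at 8.06 to 8.64 for Map1b and 3.90 to 4.05 for Stmn3, and at 3.33 to 3.83 for Ina and 2.82 to 3.02 for Nefl. In NPCs Map1b led with a level of 30.8 ± 0.938 (SD, n = 3), followed by Gap43 with 16.3 ± 0.594, Ina with 10.1 ± 1.27, Stmn2 with 8.36 ± 0.603 and Dcx with 7.61 ± 1.00. Stmn3 followed with a level of 5.33 ± 0.706, Nefl with 4.17 ± 0.402, Map2 with 1.79 ± 0.0997, Nefm with 1.51 ± 0.0703 and Mapt with 0.851 ± 0.111. Ina and Stmn2, Stmn2 and Dcx, and Stmn3 and Nefl overlapped as neighbours.

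The sum of the 10 genes on the exon scale was 149.9, 148.9 and 197.5 in ESCs and 89.7, 82.2 and 88.6 in NPCs. Stmn2 alone made up 84.8 to 90.8% of the sum in ESCs and 9.42 to 9.97% in NPCs. Without Stmn2 the sums were 22.0, 22.6 and 18.3 in ESCs and 80.8, 74.4 and 80.2 in NPCs, so that the direction of the sum depended on this gene. Map1b took 34.3 to 36.4% of the sum of the 10 genes in NPCs.

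Among tested genes outside the 10, the profile over the 6 samples nearest to the mean log2(RPKM + 1) of the 10 genes was that of Stn1, at a Euclidean distance of 0.128. Arhgef15 followed at a distance of 0.168, Trpm4 at 0.182, Smad2 at 0.185 and Mtrf1l at 0.203. The mean combines genes that rose with Stmn2 and Mapt, which fell, so it need not resemble any of the 10 genes. Such a distance weighs the level of a gene as well as its change.

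Other genes with related functions were described from lists chosen by function, with earlier results of these data known. Of all tested genes, 36.9% rose and 33.3% fell in RPKM, and 45.4% and 28.3% in RPM. Of 16 further microtubule-associated proteins, 5 were tested in RPKM, and 2 rose and 2 fell in NPCs. Of the 2 that rose, Map1a reached the filter through NPCs alone, so it could only be called higher. With no filter 6 of 16 rose, beside 39.4% of all genes. Map1a, which bundles microtubules in mature neurons, measured 0.697, 0.783 and 0.246 RPKM in ESCs and 3.96, 3.82 and 3.63 RPKM in NPCs, and Map7d1 rose from 2.17, 2.21 and 1.62 RPKM to 6.38, 7.64 and 7.69 RPKM. Map4, a microtubule-associated protein of most cell types, fell from 3.26, 3.22 and 1.93 RPKM to 1.29, 1.35 and 1.36 RPKM. Map1s, with the highest mean RPKM of the list, went from 7.95, 8.80 and 7.92 RPKM to 4.68, 6.79 and 6.65 RPKM, a log2 difference of -0.40 ± 0.14 that barely passed (SE; limma, Benjamini-Hochberg adjusted p = 0.0402), with 3 of 3 NPC samples lower. On the exon scale other genes led the list, Mapre1 with a mean level of 28.3 in ESCs and Map7d1 with 51.6 in NPCs. Neither Map4 nor Map1s passed when samples were rescaled to the same sum, where their differences were -0.42 and -0.033. The call of Map1s was also lost with no filter, where 3 genes of the list were called lower, and without ESC replicate 1 or 2 or NPC replicate 1 or 3, at differences of -0.42, -0.36, -0.26 and -0.47, where 1 gene of the list was called lower. In RPM all 16 were tested, 6 rose and 5 fell, and the median difference of the list was 0.03 on the log2(RPKM + 1) scale, beside 0.01 over all genes above 0.

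The stathmins outside the 10 genes were Stmn1 and Stmn4. Stmn1, which proliferating cells express, measured 14.1, 15.2 and 28.8 RPKM in ESCs and 22.5, 18.6 and 19.1 RPKM in NPCs. ESC replicate 3 was above all other samples, and the difference of 0.11 ± 0.27 did not pass (SE; limma, Benjamini-Hochberg adjusted p = 0.718). It turned to -0.065 without ESC replicate 1 and to -0.016 without ESC replicate 2, was 0.43 and called higher without ESC replicate 3, and also passed with the same sum of RPKM. Stmn4 was listed at 0 in all ESC samples, measured 0.170, 0.194 and 0.221 RPKM in NPCs and was called higher in RPM, the only call it could get there. Over both genes the median difference was 0.19.

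Of 6 other intermediate filament genes, 2 were tested in RPKM. Nes, the filament protein nestin of neural progenitors, rose from 3.79, 3.25 and 3.33 RPKM to 29.8, 32.7 and 29.4 RPKM, 8.85-fold in mean RPKM. Vim, the vimentin gene of progenitors and mesenchyme, was the most abundant and measured 35.3, 37.4 and 45.9 RPKM in ESCs and 44.0, 44.0 and 48.8 RPKM in NPCs, so that the groups overlapped. It was called higher without ESC replicate 3 and with the same sum of RPKM, at differences of 0.32 and 0.62. In RPM 4 were tested, of which Nes was called higher and Nefh, the heavy neurofilament subunit, lower. Nefh measured 0.473, 0.487 and 0.558 RPKM in ESCs and 0.121, 0.177 and 0.150 RPKM in NPCs, and so went in the other direction from Nefl and Nefm. The median difference of the list was 0.04.

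Most growth-cone proteins other than Gap43 were called higher in NPCs. Of 10 genes, 7 were tested in RPKM and 6 rose, and in RPM 9 of 10 rose, beside 36.9% and 45.4% of all tested genes. In RPKM 5 of these 6 reached the filter through NPCs alone, as did 3 of the 9 in RPM. With no filter 9 of 10 rose, beside 39.4% of all genes. With limma 0 fell on either scale, and 0 were lower at an unadjusted p under 0.05. Marcks, a membrane protein that binds actin, rose from 4.89, 5.21 and 6.42 RPKM to 81.4, 78.9 and 75.5 RPKM, 14.3-fold in mean RPKM. Dpysl4, a collapsin response mediator, rose from 0.0123, 0.0124 and 0.0195 RPKM to 2.36, 2.20 and 2.65 RPKM. Basp1, a membrane protein related in function to Gap43, rose from 0.188, 0.211 and 0.227 RPKM to 2.23, 2.74 and 2.68 RPKM. Marcksl1, the most abundant, measured 173.0, 193.2 and 284.0 RPKM in ESCs and 282.9, 310.3 and 300.6 RPKM in NPCs, where ESC replicate 3 lay within the range of NPCs and the test was not passed. It passed without ESC replicate 3 and with the same sum of RPKM, at differences of 0.70 and 0.91. For the 10 genes of the list the median difference was 0.93.

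Of 16 genes of axonal motors and the axonal membrane skeleton, 8 were tested in RPKM and 4 rose, all of which reached the filter through NPCs alone. With no filter 9 of 16 rose and Kif5a fell, beside 39.4% and 22.9% of all genes. Kif21b rose from 0.685, 0.671 and 0.270 RPKM to 3.53, 3.90 and 4.19 RPKM, Kif3a from 0.745, 0.635 and 0.579 RPKM to 2.60, 2.66 and 2.64 RPKM, and Kif3c from 0.165, 0.163 and 0.112 RPKM to 1.15, 1.12 and 1.28 RPKM. All are kinesins, motors that move along microtubules. The dynein heavy chain Dync1h1, with the highest mean RPKM of the list, measured 13.0, 13.3 and 5.42 RPKM in ESCs and 11.0, 10.6 and 10.6 RPKM in NPCs, and its difference of 0.11 turned to -0.27 without ESC replicate 3. On the exon scale the spectrin gene Sptan1 led the list, with mean levels of 61.3 in ESCs and 57.7 in NPCs. With limma 0 of these genes fell in RPKM, and 0 were lower at an unadjusted p under 0.05, but 3 were called lower without ESC replicate 3. A test in RPM included 15, of which 9 rose and Kif5a fell, beside 45.4% and 28.3% of all tested genes, and the median difference of the list was 0.34.

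Kinases that act on these proteins, with their activators, made a list of 13 genes, of which 10 were tested in RPKM and 6 rose, beside 36.9% of all tested genes. Of these 6, 4 reached the filter through NPCs alone, and with no filter 8 of 13 rose. With the replicate number as a block, with median-of-ratios scaling or without any 1 sample other than ESC replicate 3, 4 rose. Cdk5r1 and Cdk5r2, neuronal activators of Cdk5, rose from 0.515, 0.306 and 0.242 RPKM to 1.67, 1.68 and 1.84 RPKM and from 0.336, 0.392 and 0.476 RPKM to 1.04, 1.31 and 1.55 RPKM. Gsk3b, a tau kinase and the target of CHIR99021 in the ESC medium, rose from 0.821, 0.825 and 0.370 RPKM to 1.78, 1.66 and 1.67 RPKM. Cdk5, the most abundant, went from 5.29, 5.59 and 7.64 RPKM to 8.86, 8.54 and 8.22 RPKM, a log2 difference of 0.43 ± 0.14 (SE; limma, Benjamini-Hochberg adjusted p = 0.0287) with 3 of 3 NPC samples higher, and it did not pass with median-of-ratios scaling or with the replicate number as a block. Leaving out a sample other than ESC replicate 3 also ended this call, at differences of 0.34 to 0.45. With limma 0 of the 13 fell on either scale, 0 were lower at an unadjusted p under 0.05, and 1 was called lower without ESC replicate 3. In RPM 7 of 13 rose, beside 45.4% of all tested genes, and the median difference of the list was 0.26.

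The repressor REST, which binds near many neuronal genes, and its corepressors gave calls in both directions. Of 8 genes, 7 were tested, 2 rose and 2 fell in RPKM, and 3 rose and 2 fell in RPM. In RPKM Rcor1 reached the filter through NPCs alone, so it could only be called higher. With no filter 3 rose and 2 fell, beside 39.4% and 22.9% of all genes. Rest measured 18.3, 18.2 and 9.67 RPKM in ESCs and 6.94, 7.48 and 7.09 RPKM in NPCs. All NPC samples were lower, and ESC replicate 3 was closest to them. The difference of -0.95 ± 0.24 (SE; limma, Benjamini-Hochberg adjusted p = 0.0111) was -0.57 and no longer passed with the same sum of RPKM. Hdac1, a histone deacetylase, fell from 10.0, 9.99 and 9.54 RPKM to 4.46, 4.13 and 4.08 RPKM. Rcor1, a scaffold of the corepressor complex, rose from 0.753, 0.697 and 0.380 RPKM to 1.99, 2.01 and 2.07 RPKM, and its relative Rcor2, with the highest mean RPKM of the list, from 15.6, 17.2 and 19.1 RPKM to 20.7, 24.1 and 24.7 RPKM. On the exon scale Hdac1 led the list in ESCs and the demethylase gene Kdm1a in NPCs, with mean levels of 132.6 and 89.7. The call of Rcor2 was lost with median-of-ratios scaling, where its difference was 0.37, and without ESC replicate 1 or 2 or NPC replicate 2 or 3, at 0.34 to 0.40, so that 1 gene of the list was then called higher. Over the list the median difference was -0.07.

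The positions of the 10 genes were then compared with nucleolar-associated domains (NADs), regions of the genome that contact the nucleolus. These had been mapped with Nucleolar-DamID, in which ESC lines carried the DNA methyltransferase Dam fused to histone H2B and a nucleolar localization signal (H2B-Dam-NoLS) or to H2B alone (H2B-Dam). The fusions were induced with doxycycline (100 ng/ml) and Shield1 (1 µM) for 15 h, in ESCs or in NPCs at day 8. The authors kept domains common to both experiments and gave 1 score per domain, so there is no replicate and no test. Of 20554 genes with a position, 27.3% overlapped an ESC NAD and 21.6% an NPC NAD by at least 1 base.

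In ESCs 4 of the 10 genes overlapped a NAD. Map1b, Map2 and Stmn2 lay fully inside one, and Gap43 with 55.8% of its span. In NPCs 3 did, with Map2 and Gap43 fully inside and Mapt with 30.5% of its span. Map1b and Stmn2 thus overlapped a NAD in the ESC list but not in the NPC list, and Mapt the reverse, which for Stmn2 and Mapt depended on the domains kept or on the rule for overlap, as given below. Map1b was higher and Stmn2 lower in NPCs, so these genes, with a NAD in ESCs alone, had opposite directions in RNA.

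The ESC NAD over Map1b, at chr13:99399973-99600096, scored above 85.1% of ESC NADs, and the nearest NPC NAD was 484 kb away. That over Stmn2, at chr3:8400193-8900048, had a score of 0.0184, above 13.0% of ESC NADs, and an NPC NAD began 239 kb from the gene. Over Map2, the ESC NAD at chr1:66099892-66800354 had a score of 0.0356 and the longer NPC NAD at chr1:65800022-67099004 a score of 0.0317, above 71.1% and 9.61% of their lists. Gap43 lay at the edge of a 1901 kb ESC NAD that ended inside the gene, and within a 2801 kb NPC NAD at chr16:40600015-43401133. For Mapt, an ESC NAD began 67.8 kb from the gene, while the NPC NAD at chr11:104300749-104598681 reached into it with a score of 0.0784.

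Dcx, Stmn3, Nefl, Nefm and Ina overlapped no NAD in either list. Ina was 14.6 kb from an ESC NAD and 1516 kb from the nearest in NPCs, while Dcx was 366 kb away in ESCs and 55.9 kb in NPCs. With domains at or above the median score of each list, 2 of the 10 genes overlapped an ESC NAD and 1 an NPC NAD, beside 16.7% and 12.3% of all genes. These were Map1b and Map2 in ESCs and Mapt in NPCs, so that Stmn2 no longer counted. By the position of the transcription start, 3 genes lay in an ESC NAD, without Gap43, and 2 in an NPC NAD, without Mapt, beside 23.9% and 18.9% of all genes. With at least 50% of the gene inside, the counts were 4 and 2, again without Mapt in NPCs, beside 24.7% and 19.5%.

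**Figure D3:**
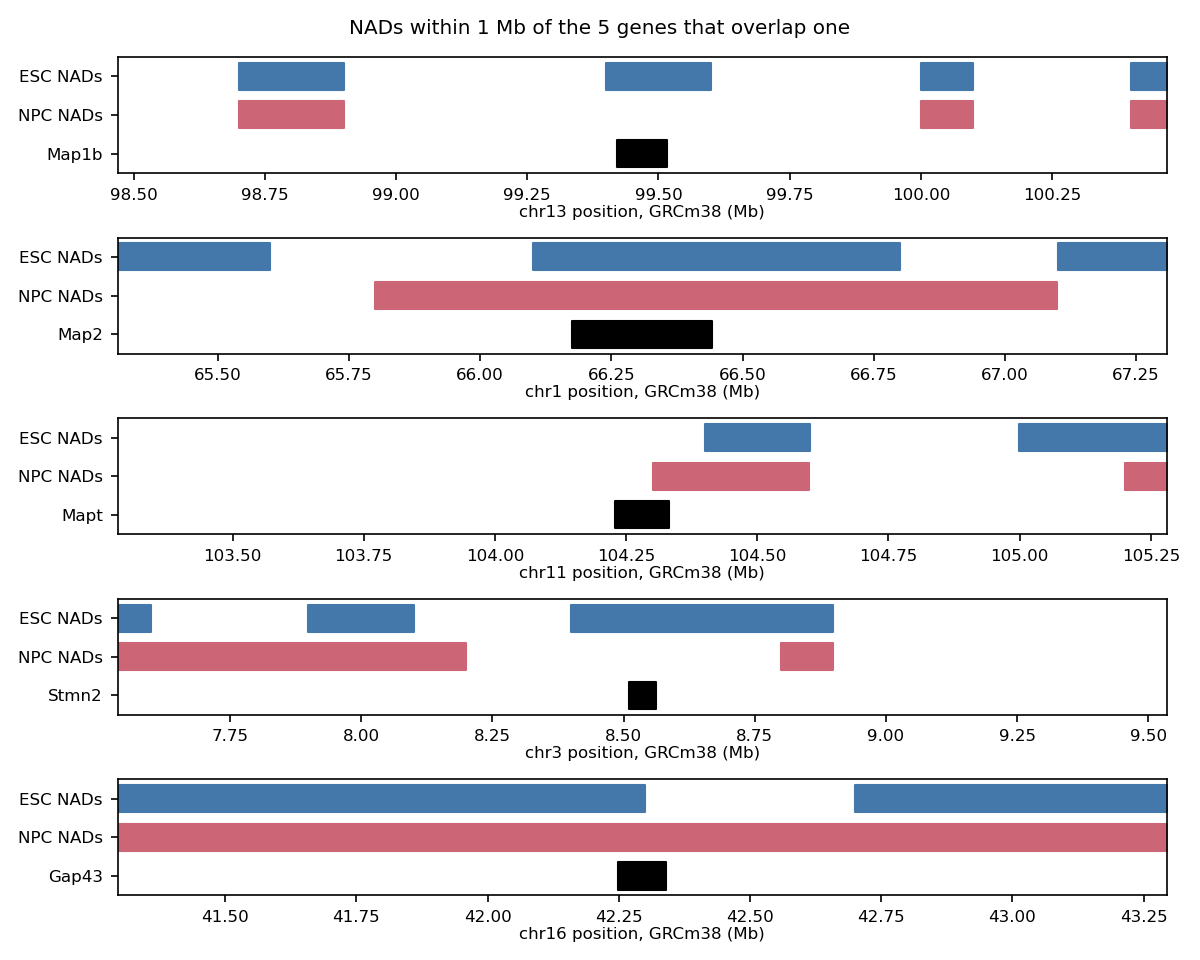
NADs of ESCs (blue) and NPCs (red) within 1 Mb of the 5 genes that overlap one (black), with positions in Mb on GRCm38. Map1b and Stmn2 lie inside an ESC NAD with no NPC NAD over them, Map2 lies inside both, and the ESC NAD at Gap43 ends within the gene.

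Promoter sequences from RefSeq (GRCm38.p6) were found for 5 of the 10 genes, Map1b, Map2, Dcx, Stmn3 and Ina. In the 250 bases before the start, 4 motifs were searched on both strands: TATAAA, the core of a TATA box, GGGCGG, the GC box, and the E-boxes CAGCTG and CAGATG. Of 32851 promoters of the same length, 12.4% held TATAAA, 32.7% GGGCGG, 13.0% CAGCTG and 14.4% CAGATG, and the median number of CG dinucleotides was 6. Sequences are shown for Map1b, Map2 and Ina, which were higher in NPCs, and for Stmn3, whose groups overlapped, with the matches of these motifs on either strand in capitals. The letters are a description and not evidence of binding. For Map2 the 123 bases before the gene span are printed, since the rest of its window lies inside the annotated gene.
Map1b, chr13:99516603-99516852, minus strand: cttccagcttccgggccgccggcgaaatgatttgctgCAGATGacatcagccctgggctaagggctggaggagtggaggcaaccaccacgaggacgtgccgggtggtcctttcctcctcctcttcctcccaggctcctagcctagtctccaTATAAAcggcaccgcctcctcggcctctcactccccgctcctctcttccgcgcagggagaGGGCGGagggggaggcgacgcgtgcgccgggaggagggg
Map2, chr1:66175079-66175201, plus strand: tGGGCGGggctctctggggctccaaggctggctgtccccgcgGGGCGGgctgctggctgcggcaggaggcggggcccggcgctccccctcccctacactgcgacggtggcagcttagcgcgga
Ina, chr19:47014431-47014680, plus strand: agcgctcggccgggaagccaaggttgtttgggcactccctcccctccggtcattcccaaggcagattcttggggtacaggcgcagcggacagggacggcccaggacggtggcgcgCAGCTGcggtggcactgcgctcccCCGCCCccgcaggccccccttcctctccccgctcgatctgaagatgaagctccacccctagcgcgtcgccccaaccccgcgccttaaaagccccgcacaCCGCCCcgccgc
Stmn3, chr2:181314501-181314750, minus strand: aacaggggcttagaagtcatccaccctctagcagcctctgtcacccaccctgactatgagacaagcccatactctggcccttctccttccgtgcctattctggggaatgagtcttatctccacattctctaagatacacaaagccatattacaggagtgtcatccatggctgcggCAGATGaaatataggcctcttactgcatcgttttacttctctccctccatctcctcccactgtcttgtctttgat

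Map1b held 1 match of TATAAA, 1 of GGGCGG and 1 of CAGATG, with 19 CG dinucleotides, more than 80.3% of promoters. Map2 held 5 matches of GGGCGG and 34 CG dinucleotides in its 250 bases, more than 96.5% of promoters. Ina held 2 matches of GGGCGG, 1 of CAGCTG and 25 CG dinucleotides, more than 89.3% of promoters. Stmn3 held 1 match of CAGATG and 3 CG dinucleotides. Dcx, which was at 0 in ESCs, held 1 match of TATAAA and 3 CG dinucleotides, and 177 of its 250 bases lay inside the annotated gene span. It had 2 promoter entries, of which 1 was used. Map1b, Map2 and Ina, higher in NPCs, thus had more CG dinucleotides than Stmn3, while Dcx, also higher in NPCs, had as few. No promoter was found for Stmn2 and Mapt, which were lower in NPCs, and no test was made.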

How the data were processed

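RNAseq was measured in 3 ESC and 3 NPC samples and Nucleolar-DamID in both cell types. For each cell type, the authors deposited a table of RPKM values, 1 per gene and sample, and a list of NADs on mm10, which are common to both experiments and carry 1 score each. The study's methods name SortMeRNA, Trimmomatic and STAR for RNAseq, while the submitters' processing notes list Bowtie2 2.3.4.3 and Subread 1.4.6-p4, and deepTools 3.2.1 for NPCs. The sample labels name a kit without strand information (TruSeq RNA v2) and the study's methods a stranded one (TruSeq Stranded mRNA), and neither the annotation nor the use of strand in counting is given.

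Of 22064 lines, identical lines were dropped, and 153 symbols occurred on more than 1 line. Genes with at least 1 RPKM in at least 3 of 6 samples were tested on log2(RPKM + 1) with limma 3.58.1 (R 4.3.3; linear model and moderated statistics with an intensity trend), with Benjamini-Hochberg adjustment over all 7849 genes and calls at an adjusted p under 0.05. Folds of this fit understate changes of low genes. RPM (RPKM multiplied by the RefSeq gene span, at least 1 in at least 3 samples, pseudocount of 0.5) were tested likewise over 13245 genes, a choice made after seeing the data. Rebuilt reads rest on RefSeq spans, which may differ from the authors' annotation. Other steps used Python 3.11.15, numpy 2.4.6, pandas 2.3.3 and matplotlib 3.10.9, and scripts were tested on simulated data.

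Named genes were the 10 genes, in each list outside the markers the 3 called genes with the largest rise, the 2 with the largest fall and the one with the highest mean RPKM over the 6 samples, and in each marker list the last of these. Nefh, Stmn4, Kif5a, Pax6, Syt1, T, Aldh1l1, further marker genes and genes leading a list on the exon scale were named after their values were seen. Members and lists were chosen with earlier results of these data known. The alternatives were other pseudocounts, filters and scalings, the replicate number as a block and each sample left out in turn. On RPM no other pseudocount or filter was tried. For NADs the alternatives were the transcription start, at least 50% of the gene and scores at or above the median. Depth was 27.3 to 34.0 M reads per sample, so that genes with few reads, such as Gap43 in ESCs, were measured less precisely.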

Additional observations from a re-analysis of the deposited data

How the results depend on the processing

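The 10 genes kept their direction under each alternative tried, except Stmn3, whose difference in RPM was -0.11 with median-of-ratios scaling. Genes called numbered 5509, and 11477 with no filter, 11640 with no filter and a pseudocount of 0.1, 8586 on the exon scale and 9759 in RPM. Genes called higher numbered 2898, and 7258, 7300, 5068 and 6007 under these settings, and genes called lower 2611, and 4219, 4340, 3518 and 3752. With the same sum of RPKM, 3926 were higher and 1555 lower. These settings, other than no filter and the same sum, and median-of-ratios scaling of RPM were chosen after seeing the data, and more genes were tested without the filter or on these scales.

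Of the 10 genes, 3 were called higher and 1 lower in RPKM, and 7 higher and 2 lower with no filter, with no filter and a pseudocount of 0.1, on the exon scale and in RPM. At least 2-fold higher were 2, and 6, 5 and 6 under the last 3 settings, against 16.6%, and 19.5%, 27.8% and 34.6% of all tested genes. Leaving out 1 sample gave 1 to 2. The median difference of the 10 genes of 0.31 was 1.34 with a pseudocount of 0.1, with or without the filter, 0.46 with a pseudocount of 0.5, 0.48 with the same sum, 1.06 on the exon scale and 1.61 in RPM. The smaller pseudocounts weigh low genes more by construction; for the other shifts the cause was not tested.

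In the lists outside the 10 genes, microtubule-associated proteins called higher numbered 6, 6, 5 and 6 with no filter, with no filter and a pseudocount of 0.1, on the exon scale and in RPM, and called lower 5 on each of the last 2 scales and 0 with the same sum. Stathmins called higher numbered 1 in each of these settings and with the same sum, and 0 to 1 with 1 sample left out. Filament genes called higher numbered 2 with the same sum and 1 to 2 with 1 sample left out, and called lower 1 with no filter and on the other scales. Axonal motors called higher numbered 9, 9, 8 and 9 in these settings, 7 with the same sum and 2 with a mean of at least 1 RPKM, and called lower 1 with no filter, at either pseudocount, and on the other scales, and 0 to 3 with 1 sample left out. Microtubule-associated proteins called lower went from 1 to 2, kinases called lower from 0 to 1, kinases called higher from 4 to 7, REST genes called higher from 1 to 2 and called lower from 2 to 3 with 1 sample left out. REST genes called higher numbered 4 with the same sum and 1 with median-of-ratios scaling, and called lower 1 with the same sum. The cause was not tested.

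With 1 sample left out, genes called numbered 4622 to 6897, higher 2519 to 3442 and lower 2095 to 3455, the highest without ESC replicate 3. Stmn1 went from -0.065 to 0.43, with -0.016 without ESC replicate 2, and Dync1h1 from -0.27 to 0.31. Stmn3 was called only without ESC replicate 3. Sptan1, at -0.01, was 0.35 with the same sum, 0.0010 in RPM, -0.34 and called lower without ESC replicate 3, and 0.15, 0.15 and 0.017 without ESC replicate 1, ESC replicate 2 and NPC replicate 3. Kdm1a was 0.32 with the same sum, against -0.04. Over the 10 genes and the other genes of the lists named in the text, where tested in RPKM or otherwise in RPM, 904 values kept direction and call, 23 lost the call, 10 gained one and 10 turned direction, and the cause was not tested.

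With the replicate number as a block, 5224 genes were called, against 5509, and of the 10 genes and the other list genes named and tested, only Cdk5 lost its call. The deviations of samples with the same number correlated at 0.11, -0.08 and 0.03, and not every sample correlated best with its own number, so no pairing was seen. With 3 samples per group and ESC replicate 3 set apart, this check cannot exclude a pairing. NADs at or above the median score overlapped 2 of the 10 genes in ESCs and 1 in NPCs, against 16.7% and 12.3% of all genes. By the transcription start these counts were 3 and 2, and with at least 50% of the gene 4 and 2. Precision was limited for genes of few reads: Gap43 in ESCs had 24 to 43 and Nefm 36 to 45.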
